A study of Mus musculus with 9 samples.

Results

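The 10 genes Fos, Fosb, Fosl1, Fosl2, Jun, Junb, Jund, Atf3, Egr1 and Ier2 were followed in single-cell RNA libraries of mouse mammary tumours, in the tumour cells and in the stromal cells of the same libraries. They were taken by symbol from the feature table, where each had 1 row among 32286 features. The tumours were grown by injecting 168FARN cells, a mouse mammary carcinoma line, into the mammary fat pad of female BALB/c mice. The cells were WT, Kmt2c KO or Kmt2d KO, and 3 tumours of each genotype gave 9 libraries. The KO cells had been made with guides in exon 1 of the gene and used as sorted pools, so that the 3 tumours of a genotype replicate the mouse and not the knockout. All 3 genotypes carried an H2B-mCherry reporter, which the feature table lists as H2BMc, and its transcript marked the tumour cells. Every tumour was digested for 1 h at 37 °C with collagenase and hyaluronidase, frozen and later enriched on Percoll, so that tumour and stromal cells of a library shared the same handling. The mice were bought at a few weeks of age, and their age at collection was not found in the sources used here.

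AP-1 is a transcription factor made of pairs of leucine zipper proteins. The JUN proteins (Jun, Junb, Jund) pair with themselves or with the FOS proteins (Fos, Fosb, Fosl1, Fosl2), and Atf3 is a related zipper protein that can pair with JUN and is often a repressor. Immediate early genes such as Fos, Egr1, a zinc finger factor, and Ier2 are transcribed within minutes of a growth factor, stress or mechanical stimulus without new protein synthesis. Enzymatic dissociation of tissue at body temperature is itself such a stimulus, so the stromal cells of the same suspensions were set beside the tumour cells throughout.

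Tumour cells were cells with at least 1 H2BMc UMI (unique molecular identifier, 1 counted molecule) and fewer than 2 markers of each of 7 stromal lists. These were the macrophage, dendritic, lymphocyte, B cell, neutrophil, endothelial and mural lists. Stromal cells had 0 H2BMc and 0 Krt8 UMIs and at least 2 markers of 1 of these lists. This gave 331 to 3297 tumour cells and 124 to 527 stromal cells per library. Summed counts were 8697895 to 42495519 UMIs per library in tumour cells and 565892 to 1502970 in stromal cells, and levels are given as CPM, the UMIs of a gene per 1000000 summed UMIs of the library. The tumour gate held its own markers H2BMc, which defines it, and Krt8 at a pooled 122 and 378 CPM, whereas Krt18, a further marker on the tumour list, was nearly absent there. By library, H2BMc was at 73.4 to 115 CPM in WT, 143 to 153 in Kmt2c KO and 93.9 to 118 in Kmt2d KO tumour cells. Krt8 was at 546 to 569 CPM in WT, 231 to 339 in Kmt2c KO and 302 to 464 in Kmt2d KO tumour cells. What these genotype differences do to the gates was not tested. Cells with 0 H2BMc and 0 Krt8 UMIs and at least 2 fibroblast markers were kept apart from the stromal pool, because the fibroblast markers Clec3b and Pdgfra were also read in the tumour gate, at a pooled 137 and 78.4 CPM. Fibroblast markers did not bar a cell with H2BMc from the tumour gate. The 3 WT libraries were the smallest and lost 11.6 to 33.8% of their barcodes to the mitochondrial limit, against 7.78 to 17.6% in the KO libraries. The libraries shared 4365 barcode sequences, at most 3.3% of the smaller library in any pair. UMIs of the targeted genes did not fall with the knockout. In tumour cells Kmt2c was at 48.1 ± 8.34 CPM in Kmt2c KO and 48.3 ± 1.08 in WT libraries, and Kmt2d was higher in Kmt2d KO than in WT libraries without overlap, at 27.6 ± 3.70 against 18.4 ± 3.21 (mean ± SD, n = 3 each). UMI counts do not read the edit itself. The study examined the edited sites and the proteins by sequencing and immunoblot of the cell lines, which were not analysed here, so in these libraries the knockout is taken from the labels.

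RefSeq promoter windows (GRCm38.p6, 250 bases before to 50 after the start) were at hand for 7 of the 10 genes, which differ in what these windows hold. The letters TGACG on either strand, the core of the element bound by CREB and ATF proteins, were found in the windows of Fos, Fosb, Junb and Atf3 and not in those of Fosl2, Jun and Jund, and 20.8% of 32851 promoters of the same length hold them. No member window held TGANTCA, the AP-1 site in its common form (7.81% of promoters), or the CArG box bound by serum response factor (1.63%). Variants of these letters and sites outside the windows were not looked for. The last 110 bases before the start are shown for Fos and Junb, whose tumour levels moved together, for Jun, which was higher in tumour than in stromal cells, and for Atf3, which was nearly absent from tumour cells, with TGACG or its reverse complement in capitals.
Fos, chr12:85473780-85473889, plus strand: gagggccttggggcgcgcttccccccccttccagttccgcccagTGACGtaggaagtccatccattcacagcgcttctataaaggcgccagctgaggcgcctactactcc
Junb, chr8:84978749-84978858, minus strand: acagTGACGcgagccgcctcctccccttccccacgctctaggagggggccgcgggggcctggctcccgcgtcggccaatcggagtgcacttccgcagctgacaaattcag
Jun, chr4:95052223-95052332, minus strand: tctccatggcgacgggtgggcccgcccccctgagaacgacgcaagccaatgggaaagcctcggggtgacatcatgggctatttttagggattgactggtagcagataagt
Atf3, chr1:191183334-191183443, minus strand: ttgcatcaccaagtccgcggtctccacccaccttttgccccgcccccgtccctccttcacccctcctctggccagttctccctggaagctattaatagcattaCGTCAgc

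Fos, the inducible partner of AP-1 that is the usual sign of a recent stimulus, was read in tumour cells of every library. Its level in tumour cells was 63.2, 102 and 109.6 CPM in the WT libraries, 82.0, 225 and 170 CPM in the Kmt2c KO libraries and 74.7, 103 and 55.9 CPM in the Kmt2d KO libraries. The groups overlapped, with the second and the third Kmt2c KO library above all others. In stromal cells the order was clearer, with 112, 85.3 and 108 CPM in WT, 387, 318 and 279 CPM in Kmt2c KO and 146, 199.5 and 183 CPM in Kmt2d KO libraries. No group overlapped another there, Kmt2c KO being the highest and WT the lowest.

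Fosb, a further inducible partner, was the least abundant of the FOS genes in UMIs, with a total of 2490 UMIs over all tumour cells. It stood at 13 to 19.0 CPM in WT, 7.21 to 22.8 in Kmt2c KO and 5.04 to 14.1 in Kmt2d KO tumour cells, and the groups overlapped. Fosl1 and Fosl2 encode FRA1 and FRA2, more stable partners found in growing and invasive cells. Fosl1 in tumour cells was at 133, 146.5 and 161 CPM in WT, 219.6, 244 and 242 CPM in Kmt2c KO and 118, 203 and 111 CPM in Kmt2d KO libraries. All 3 Kmt2c KO libraries were above all others, and the second Kmt2d KO library lay apart from the other two of its group. Fosl2 in tumour cells was at 30.6, 31.9 and 36.4 CPM in WT, 45, 61.2 and 71.7 CPM in Kmt2c KO and 32, 39.4 and 28.3 CPM in Kmt2d KO libraries. Here too the Kmt2c KO libraries were above all others. In stromal cells Fosl2 was at 79.8 to 100.7 CPM in WT, 49.5 to 81.2 CPM in Kmt2c KO and 50.6 to 65.0 CPM in Kmt2d KO libraries, where only the Kmt2d KO libraries were below WT without overlap. It was higher in endothelial-gated (60.0 to 119 CPM) than in macrophage-gated cells (16.3 to 64.8 CPM), whose shares of the stromal pool differed between libraries as given with the stromal comparisons.

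Jun, the core member of the family, was at 809, 825 and 1108 CPM in WT, 869, 1220 and 1088 CPM in Kmt2c KO and 767, 800.5 and 844 CPM in Kmt2d KO tumour cells. The 3 groups lay close to each other, and only Kmt2d KO and Kmt2c KO did not overlap. Junb, which often restrains Jun and is induced with Fos, was at 125, 187.5 and 195 CPM in WT, 219, 358 and 399 CPM in Kmt2c KO and 184, 252 and 122 CPM in Kmt2d KO tumour cells. The Kmt2c KO libraries were above WT without overlap, and the second Kmt2d KO library reached into the Kmt2c KO range. Jund, the member least dependent on stimuli, was at 515 to 636 CPM in WT, 534 to 799 CPM in Kmt2c KO and 527 to 592 CPM in Kmt2d KO tumour cells.

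Egr1 was at 14.2, 22.7 and 31.7 CPM in WT, 26.3, 56.3 and 52.1 CPM in Kmt2c KO and 19.3, 28.0 and 8.90 CPM in Kmt2d KO tumour cells. Ier2, a small nuclear protein induced early with Fos, was at 78.8, 86.0 and 113 CPM in WT, 91.7, 164 and 167 CPM in Kmt2c KO and 91.1, 109.6 and 74.6 CPM in Kmt2d KO tumour cells. For Fos, Egr1 and Ier2 alike, the first Kmt2c KO library lay within the WT range and the second and the third above it. Atf3 was almost absent from tumour cells, with 92 UMIs in all 9 libraries together, a pooled 0.43 CPM (95% exact Poisson interval 0.347 to 0.527, counting error only). In stromal cells Atf3 was at 57.4 to 94.9 CPM in WT, 60.1 to 141 CPM in Kmt2c KO and 57.3 to 110 CPM in Kmt2d KO libraries.

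**Figure D1:**
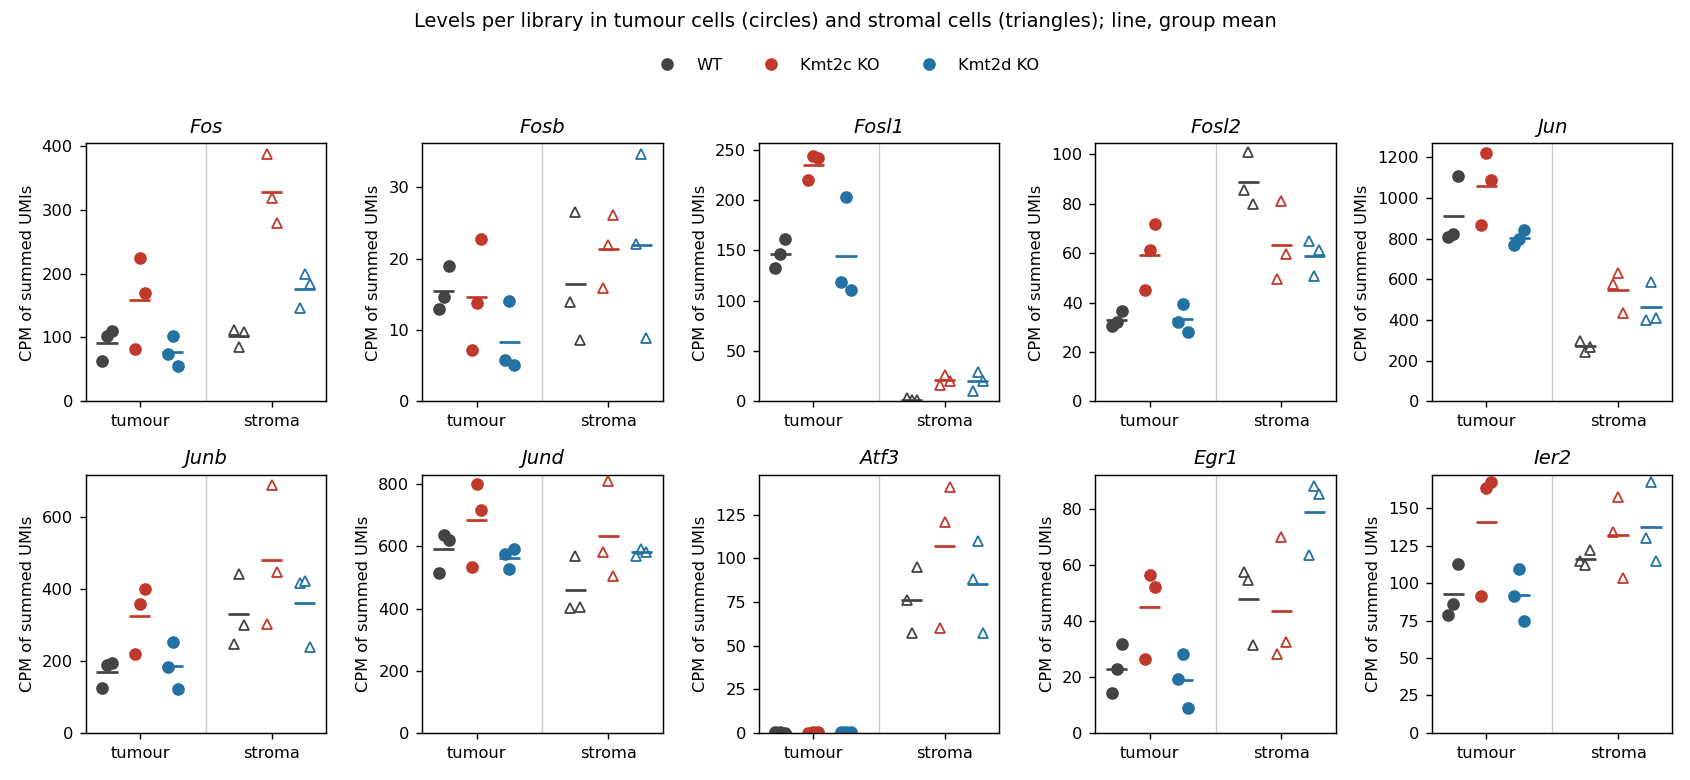
Levels of the 10 genes in CPM of summed UMIs (y axes, starting at 0), each point 1 library, for tumour cells (filled circles) and stromal cells (open triangles), with the mean of the 3 libraries of a genotype as a line. Fosl1 and Fosl2 in tumour cells and Fos in stromal cells are above WT in all 3 Kmt2c KO libraries, and Atf3 is near 0 in tumour cells of every library.

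The first question was whether loss of either methyltransferase changed these genes in tumour cells. In Kmt2c KO against WT tumour cells, Fosl2, Junb and Fosl1 rose and the other 7 did not pass the test. The log2 fold change was 0.86 ± 0.17 (SE, adjusted p = 0.00818) for Fosl2, 0.96 ± 0.28 (adjusted p = 0.0395) for Junb and 0.70 ± 0.20 (adjusted p = 0.034) for Fosl1, from edgeR's quasi-likelihood test with 3 libraries a group. Over all 13906 genes tested, 10.1% were called higher and 8.56% lower (18.7% in either direction), beside 3 of 10 members. The median log2 fold change was 0.66 over the 10 members and 0.01 over all genes tested. Fos, Egr1 and Ier2 had values of 0.81 ± 0.35, 0.99 ± 0.42 and 0.62 ± 0.23 with adjusted p = 0.13, 0.128 and 0.0866, and Jun, Jund, Fosb and Atf3 lay between -0.08 and 0.23. Only Fosl2 kept its call when each library was left out in turn. Leaving out the second or the third Kmt2c KO library, or any 1 of the WT libraries, ended the calls of Junb and Fosl1 and left 1 member called, and leaving out the first Kmt2c KO library ended that of Fosl1 (adjusted p = 0.053). The call of Fosl1 was also lost without the 5% of cells with the most UMIs (adjusted p = 0.054), and that of Junb with no limit on mitochondrial counts (adjusted p = 0.0513) and with Krt8 as a further way into the tumour gate (adjusted p = 0.104). Ier2 gained a call by DESeq2, without the low-count filter and with only the 2 groups compared. It also did so without the first Kmt2c KO or the second Kmt2d KO library. Egr1 gained a call without the filter, without the second Kmt2d KO library and with only the 2 groups compared. Fos gained a call without the filter and without the first Kmt2c KO library.

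In Kmt2d KO against WT tumour cells no member passed the test, by edgeR or by DESeq2, and 0 of the 10 had an unadjusted p below 0.05. The background was 2.04% of genes called in either direction, 0.971% higher and 1.07% lower. Fosb had the value farthest from 0, -0.92 ± 0.44 (SE, adjusted p = 0.323), and the other 9 lay between -0.32 and 0.11. The SE of single members, 0.15 to 0.54, sets how small a difference could have been seen. Without the second Kmt2d KO library, which stood nearer to the Kmt2c KO libraries in Fosl1, Junb and Fosb, Fosb was called lower at -1.55 (adjusted p = 0.0288), among 778 of 14024 genes called.

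In Kmt2d KO against Kmt2c KO tumour cells edgeR called no member and 0 of 13906 genes (0.0%), although 7 members and 2439 genes had an unadjusted p below 0.05. DESeq2 called 519 genes, among them Fosl2 and Fosl1. All 10 members had negative values, from -0.31 for Atf3 to -1.31 ± 0.41 for Egr1 (adjusted p = 0.155), and Fosl2 came nearest to a call at -0.87 ± 0.17 (adjusted p = 0.0667). Without the second Kmt2d KO library 7 members were called, all lower in Kmt2d KO, with Egr1 at -1.73, Fosb at -1.45, Fos at -1.32, Junb at -1.11, Fosl1 at -1.06, Fosl2 at -1.0 and Ier2 at -0.79. In that fit 2726 of 14024 genes were called, 1281 higher and 1445 lower. Without the first Kmt2c KO library Fosl2 alone was called (-1.04, adjusted p = 0.0337), among 99 of 14042 genes.

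The same comparisons in stromal cells asked how the genes stood in the cells around the tumour cells. Fos and Jun rose in stromal cells of Kmt2c KO tumours. The log2 fold change against WT was 1.70 ± 0.20 (SE, adjusted p = 0.000729) for Fos and 1.04 ± 0.21 (adjusted p = 0.0088) for Jun. Fosl1 passed the low-count filter through the KO libraries alone, so that a tested value had to be higher there. Its fitted stromal values, 3.55 ± 0.58 for Kmt2c KO and 3.39 ± 0.61 for Kmt2d KO against WT (SE), are therefore a description, although the fit called both. The background was 11.3% of 9489 genes called in either direction, 5.47% higher and 5.8% lower. The call of Fos was kept under all 20 alternatives, but its value went from 0.87 with fibroblast-gated cells included to 2.36 in endothelial-gated cells alone. That of Jun was lost without the second WT library (adjusted p = 0.0526) and with at least 3 markers asked of a stromal cell (0.55, adjusted p = 0.153). The Fosl1 value for Kmt2c KO was 1.68 with fibroblast-gated cells included, and in macrophage-gated cells alone or with at least 3 markers it failed the filter. Jun in stromal cells was at 299.5, 245 and 268.5 CPM in WT, 580, 629 and 434 CPM in Kmt2c KO and 399, 585 and 409 CPM in Kmt2d KO libraries, and both KO groups were above WT without overlap. Fosl1 in stromal cells was at 3.10, 1.40 and 1.08 CPM in WT, 15.9, 26.6 and 20.8 CPM in Kmt2c KO and 10.4, 28.9 and 20.4 CPM in Kmt2d KO libraries. The WT values rest on 4 UMIs in all, and the pooled ratio of Kmt2c KO to WT was 13 (95% exact interval 4.85 to 48.8, counting error only) and that of Kmt2d KO to WT 11.2 (4.08 to 42.9).

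The make-up of the stromal pool also differed between the libraries, and its part in these differences was not tested. Endothelial-gated cells held 55.9 to 59.0% of the stromal UMIs in the WT libraries, 53.0, 29.0 and 24.8% in the Kmt2c KO libraries and 46.7, 46.9 and 63.0% in the Kmt2d KO libraries. Macrophage-gated cells, in which Fos was the higher of the pair in WT (174 against 55.0 CPM on average), held 21.7 to 28.9% in WT, 31.2 to 54.1% in Kmt2c KO and 15.6 to 41.1% in Kmt2d KO libraries. Lymphocyte-gated cells numbered 192 in the second Kmt2c KO library and 9 to 63 in the others. Within each of the larger gates the order was that of the pool for Jun: it was at 194 to 209 CPM in WT, 413 to 791 CPM in Kmt2c KO and 400.1 to 486 CPM in Kmt2d KO macrophage-gated cells, and at 302 to 332, 601 to 728 and 387 to 679 CPM in endothelial-gated cells, with both KO groups above WT without overlap. Genes high in tumour cells were also higher in these gates in the KO libraries, as given with the stromal sums.

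In Kmt2d KO against WT stromal cells no member but Fosl1, described above, was called, and 0.295% of all genes were called in either direction, 0.263% higher and 0.0316% lower. The Fosl1 call was lost when any 1 of 7 of the 9 libraries was left out, the first library of either KO group being the exception, with an adjusted p of up to 0.184 without the second WT library. It was also lost with no limit on mitochondrial counts, without the 5% of cells with the most UMIs, with fibroblast-gated cells included (1.30) and in endothelial-gated cells alone (adjusted p = 0.0695 to 0.115). Fos and Jun had values of 0.80 ± 0.21 and 0.79 ± 0.22 (adjusted p = 0.145 and 0.181) without overlap between the groups. In Kmt2d KO against Kmt2c KO stromal cells no member was called (background 0.137% of genes in either direction, 0.105% higher and 0.0316% lower), 2 had an unadjusted p below 0.05, and DESeq2 called 1, Fos at -0.89.

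**Figure D2:**
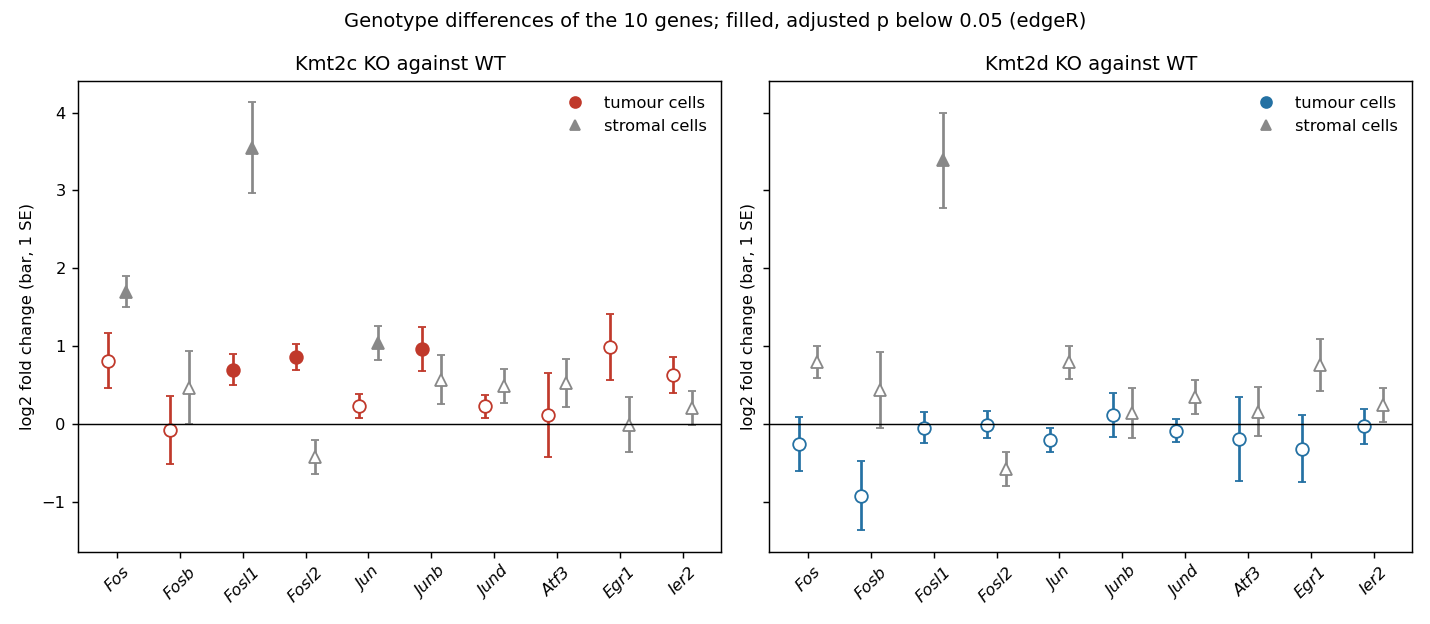
Log2 fold change against WT (y axis, bars 1 SE) of each gene in tumour cells (circles) and stromal cells (triangles) for Kmt2c KO (left) and Kmt2d KO (right), filled where the adjusted p from edgeR was below 0.05. Fosl1, Fosl2 and Junb are filled for Kmt2c KO tumour cells, Fos, Jun and Fosl1 for Kmt2c KO stromal cells, and Fosl1 in stromal cells is the only filled symbol for Kmt2d KO. The stromal Fosl1 values are a description, since WT rests on 4 UMIs.

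Genes high in tumour cells were also read in the stromal sums, at a higher level in the KO libraries. The 10 genes of at least 200 CPM in tumour cells with the lowest ratio of stromal to tumour level, among them Hmga1, Rhox5, Twist1 and S100a4, were chosen for this after the values were seen, and stromal cells can express some of them. Their median level in stromal cells was 5.20 to 7.50% of that in tumour cells in the WT libraries, 20.4 to 34.6% in Kmt2c KO and 14.3 to 24.1% in Kmt2d KO libraries. Taken times the tumour level of Fosl1, this share comes to 8.25 to 9.95 CPM in WT and 17.0 to 76.0 CPM in KO stromal cells. That is above the measured Fosl1 level in 8 of 9 libraries, so the share is too high to serve as an amount of tumour RNA, and none was taken off any level. For each of the larger gates 10 tumour genes were chosen anew by the same rule, so the lists overlap only in part, with Hmga1 and Rhox5 in all of them. The level of these genes moved with genotype inside the gates too, at 3.56 to 4.48% in WT and 6.33 to 23.9% in KO macrophage-gated cells and at 1.16 to 4.66% and 18.8 to 42.2% in endothelial-gated cells. This share times the tumour level of Jun comes to 9.58 to 51.6 CPM in WT and 146 to 514.5 CPM in KO endothelial-gated cells. In macrophage-gated cells it comes to 33.7 to 39.5 CPM in WT and 48.6 to 232 CPM in KO libraries. The highest value, in endothelial-gated cells of the second Kmt2c KO library, stands beside 728 CPM measured. There too the share is too high for Fosl1, at 103 CPM against 66.6 measured. For Fos, the share in the pooled stromal sums comes to 4.74 to 5.74 CPM in WT, 28.4 to 60.15 in Kmt2c KO and 10.2 to 24.8 in Kmt2d KO libraries. The measured Fos levels there were 85.3 to 112, 279 to 387 and 146 to 199.5 CPM. The part of tumour RNA in the stromal levels of Fosl1, Jun and Fos was not tested.

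**Figure D3:**
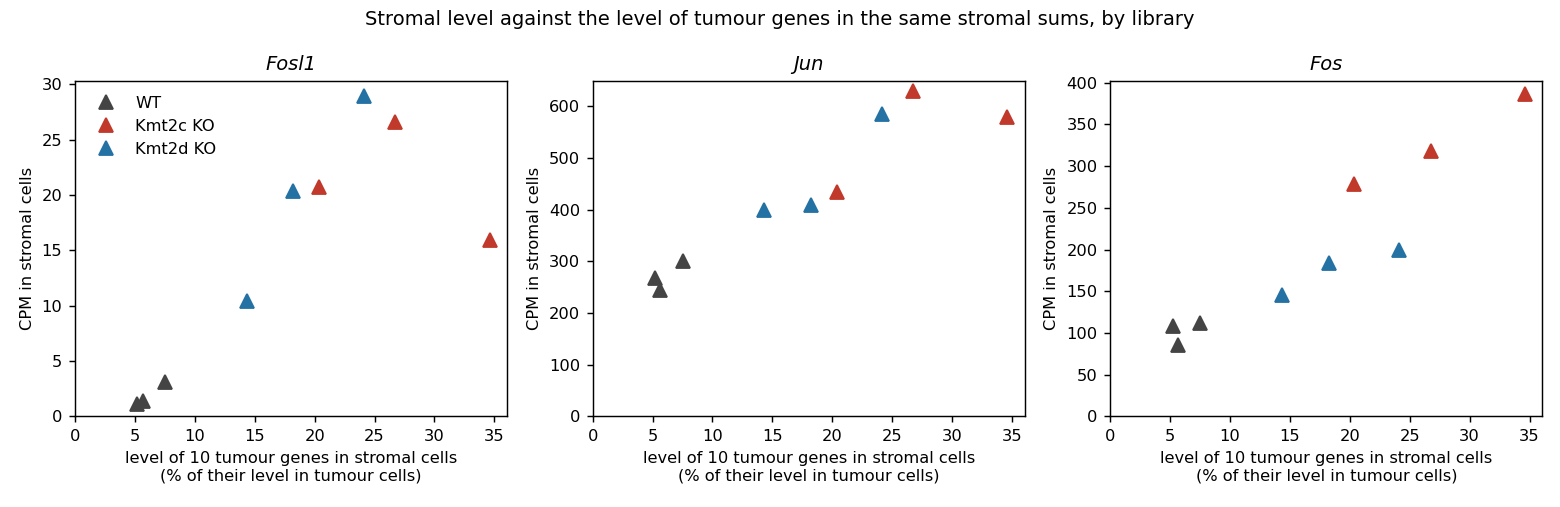
Level of Fosl1, Jun and Fos in stromal cells (y axes, CPM) against the median level of 10 tumour genes in the same stromal sums (x axes, in percent of their level in tumour cells), 1 triangle per library. The 3 WT libraries sit at 5.20 to 7.50% and the 6 KO libraries at 14.3 to 34.6%.

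Within single stromal gates the levels differed from the pool. In macrophage-gated cells (28 to 210 per library) Fos was at 136 to 235 CPM in WT, 311 to 646 CPM in Kmt2c KO and 197 to 370 CPM in Kmt2d KO libraries, so that Kmt2c KO lay above WT without overlap. In endothelial-gated cells (43 to 98 per library) Fos was at 50.2 to 62.1 CPM in WT and 117 to 510 CPM in Kmt2c KO libraries, and the 3 Kmt2d KO libraries were at 44.6, 200.5 and 196 CPM. Fosl1 had 0 UMIs in the macrophage-gated cells of all 3 WT libraries, where 3 counts would have been 11.2 to 21.4 CPM, and was at 4.46 to 35.2 CPM in those of the KO libraries. Atf3 was at 98.4 to 273 CPM in macrophage-gated cells, at 63.7 to 263 CPM in dendritic-gated cells of the 6 libraries with at least 20 of them, and at 14.9 to 105 CPM in endothelial-gated cells. Egr1 was at up to 26.8 CPM in macrophage-gated and at 30.9 to 142 CPM in endothelial-gated cells. Cells gated on fibroblast markers (33 to 600 per library) were near the tumour cells in Jun, with a median of 1092 CPM, but held a median of only 26.5 CPM of Fosl1.

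**Figure D4:**
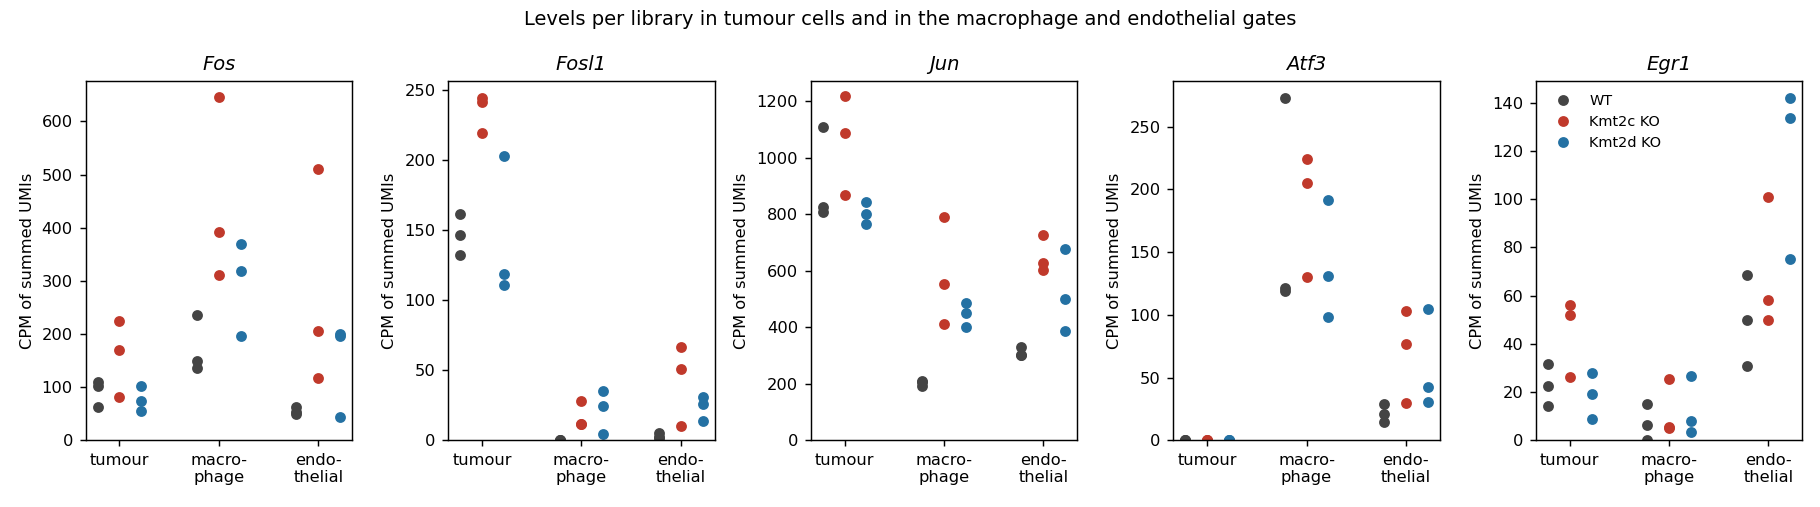
Levels in CPM (y axes, starting at 0) of Fos, Fosl1, Jun, Atf3 and Egr1 in tumour cells and in macrophage- and endothelial-gated cells, each point 1 library coloured by genotype. Atf3 has its highest and Egr1 its lowest library among macrophage-gated cells, and Fosl1 has all 9 tumour values above the gated ones.

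Within libraries, Fosl1 and Jun were higher in tumour than in stromal cells in all 9, by 5.45- to 150-fold and by 1.37- to 4.12-fold in CPM, and Jund was higher in 6. In the fit with the library as a block, the log2 difference was 3.77 ± 0.25 (SE, adjusted p = 8.9e-10) for Fosl1, 1.30 ± 0.13 (adjusted p = 2.3e-07) for Jun and 0.28 ± 0.08 (adjusted p = 0.00592) for Jund. Junb, Fos, Egr1, Fosl2 and Fosb were lower in tumour cells: Junb in all 9 libraries (-0.68 ± 0.10, adjusted p = 1.7e-05), Fos in 7 (-0.73 ± 0.19, adjusted p = 0.00282), Egr1 in 7 (-0.95 ± 0.31, adjusted p = 0.0126), Fosl2 in 8 (-0.65 ± 0.18, adjusted p = 0.0039) and Fosb in 8 (-0.53 ± 0.23, adjusted p = 0.0448). Atf3 was lower in all 9, and its pooled stromal level was 223 times that in tumour cells (95% exact interval 179 to 280, counting error only). It passed the low-count filter through the stromal sums alone, so that a tested value had to be lower in tumour cells. Its fitted value of -7.52 ± 0.17 is therefore a description, although the fit called it. Ier2 did not pass, at -0.14 ± 0.12 (adjusted p = 0.313). Calls were common in this comparison, with 36.7% of 14248 genes higher and 36.3% lower in tumour cells, so 9 members called of 10 are near a background of 72.9%. Which stromal class was used mattered for Egr1, which was higher in tumour cells than in macrophage-gated cells (1.55, adjusted p = 0.000194), for Fos, whose difference from endothelial-gated cells was -0.32 (adjusted p = 0.393), and for Fosl2, whose difference from macrophage-gated cells was -0.08 (adjusted p = 0.734). It also mattered for Jund, at 0.22 against endothelial-gated cells (adjusted p = 0.111) and -0.15 with fibroblast-gated cells included (adjusted p = 0.123), and DESeq2 did not call Jund either (0.17, adjusted p = 0.0946). Fosb was at -0.02 against endothelial-gated cells and at 0.11 with at least 3 markers, with no call in either (the lower adjusted p was 0.74). The call of Fosb was also lost without the low-count filter, with no limit on mitochondrial counts and with Krt8 as a further way into the tumour gate (adjusted p = 0.0672 to 0.0879), and without any 1 of 6 libraries, namely all 3 Kmt2d KO libraries, the first and the second Kmt2c KO library or the second WT library (adjusted p = 0.0645 to 0.119).

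Whether the genotype difference itself differed between the compartments was tested as an interaction, where a positive value means a larger KO-minus-WT difference in tumour cells. For Kmt2c KO, Fosl2 was at 1.39 ± 0.23 (SE, adjusted p = 0.000204), rising in tumour cells while its stromal value was -0.43. Jun was at -0.71 ± 0.20 (adjusted p = 0.0245) and Fosl1 at -2.89 ± 0.52 (adjusted p = 0.000614), both with the larger KO value in stromal cells, and the background was 7.17% of genes, 4.32% higher and 2.84% lower. The call of Jun was lost without the first or the second Kmt2c KO library or the second or the third WT library (adjusted p = 0.0755 to 0.114). For Kmt2d KO, Jun was at -0.87 ± 0.20 (adjusted p = 0.0221) and Fosl1 at -3.47 ± 0.52 (adjusted p = 0.000494), against a background of 1.66%, 0.807% higher and 0.856% lower, and the call of Jun was lost without the second or the third WT library (adjusted p = 0.0958 and 0.119). Between the KO genotypes only Egr1 was called, at -2.28 ± 0.38 (adjusted p = 0.00347, background 0.618%, 0.0912% higher and 0.526% lower), and it lost the call without the third Kmt2c KO library (-1.96, adjusted p = 0.0933). Its tumour level was lower in Kmt2d KO than in Kmt2c KO libraries on average (18.7 against 44.9 CPM) and its stromal level was higher (79.1 against 43.5 CPM). The level of the 10 tumour genes in the stromal sums moved with the stromal side of the Jun and Fosl1 values, and its part in the interaction was not tested. With at least 3 markers asked of a stromal cell, Jun and Fosl1 lost both calls: Jun was at -0.21 and -0.58 (adjusted p = 0.669 and 0.334) and Fosl1 at -1.30 and -1.89 (adjusted p = 0.432 and 0.533) for Kmt2c KO and Kmt2d KO. Against macrophage-gated cells alone Fosl1 had fitted values of -9.77 (adjusted p = 0.0617) and -10.99 (adjusted p = 0.00429), which depend on the prior count, and Fosl2 was at 1.06 (adjusted p = 0.124) for Kmt2c KO. With fibroblast-gated cells included Fosl1 stood at -1.0 and -1.32 and kept both calls. Jun for Kmt2d KO lost its call without the 5% of cells with the most UMIs (-0.91, adjusted p = 0.0852). Egr1 lost its call there too (-1.64, adjusted p = 0.0727), as well as with fibroblast-gated cells included (-1.91, adjusted p = 0.149) and in macrophage-gated cells alone (-1.21, adjusted p = 0.866).

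Libraries high in stromal cells were not shown to be high in tumour cells. Over the 9 libraries the correlation of log2(CPM + 1) between tumour and stromal cells was strongest for Junb, with Pearson r = 0.81 (two-sided exact permutation p = 0.00905, adjusted over 10 members 0.0905) and Spearman rho = 0.80 (exact permutation p = 0.0138, adjusted 0.138). It fell to r = 0.60 without the 2 libraries farthest from the median stromal level, and was 0.79 on deviations from the genotype means. For Fos r was 0.40 (exact permutation p = 0.288, adjusted 0.575) and rho 0.28 (exact permutation p = 0.463, adjusted 0.645), with r = 0.71 without the 2 farthest libraries and r = -0.40 on deviations from the genotype means. Of the other 8 members, r lay between -0.40 for Egr1 and 0.47 for Jund, and no member passed after adjustment.

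The share of tumour cells with a UMI was compared at a common depth of 2000 UMIs per cell, since the median depth of tumour cells was 13554 to 23745 UMIs in the WT and 8555 to 14211 in the KO libraries. Of 331 to 3297 tumour cells a library, 327 to 3230 had that depth. Fosl2 was found in 5.50 to 7.66% of WT, 8.64 to 12.6% of Kmt2c KO and 7.07 to 8.18% of Kmt2d KO tumour cells, against 29.7 to 45.6% of cells before thinning (exact permutation p = 0.025, adjusted over 10 members 0.25). For Fosl1 the shares were 16.0 to 18.7%, 24.6 to 26.1% and 12.4 to 22.8% (exact permutation p = 0.05, adjusted 0.25), against 35.4 to 55.1% before thinning. Fos was found in 10.8 to 15.6%, 8.30 to 19.6% and 7.69 to 11.1% of tumour cells (exact permutation p = 0.361, adjusted 0.439), against 18.9 to 39.9% before thinning. No member passed after adjustment over 10 members, and the smallest p that 1680 assignments allow is 0.00357. Among thinned macrophage-gated cells Fosl1 was found in 0 of 22, 30 and 49 cells of the WT libraries, which allows shares of up to 13.6, 10.0 and 6.12%, and in 2.08 to 6.06% in the KO libraries, so that no difference was detectable at this depth. Atf3 was found in 0.182 to 0.946% of unthinned tumour cells against 16.7 to 28.4% of thinned macrophage-gated cells.

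Within a library, a Fos UMI was more frequent in tumour cells with a UMI of another inducible gene than in those without, although most cells with an Ier2 or Junb UMI had no Fos UMI. Cells with an Egr1 UMI went either way, with 31.3 to 62.7% holding a Fos UMI by library after the thinning described next. With the tumour cells of at least 4000 UMIs each thinned to 4000, which left out 2.28 to 16.1% of the tumour cells of a library (2.28 to 2.6% in WT), the share of cells with a Fos UMI was a median of 62.9% over the 9 libraries among cells with a Fosb UMI and 14.3% among cells without one. For Egr1 the medians were 43.8 and 14.7%, for Ier2 27.0 and 11.2%, for Junb 21.9 and 10.3% and for Fosl2 21.8 and 14.8%, and the share was higher in the cells with the UMI in 9 of 9 libraries for each. Jun and Jund went the same way in 9 of 9 libraries, with 17.7 against 5.88% and 18.9 against 6.95%. Fosl1 did not, with 14.2% in cells with and 17.1% in cells without a Fosl1 UMI and a higher share with it in 2 of 9 libraries. Cells of a library share their source, so these shares carry no test.

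**Figure D5:**
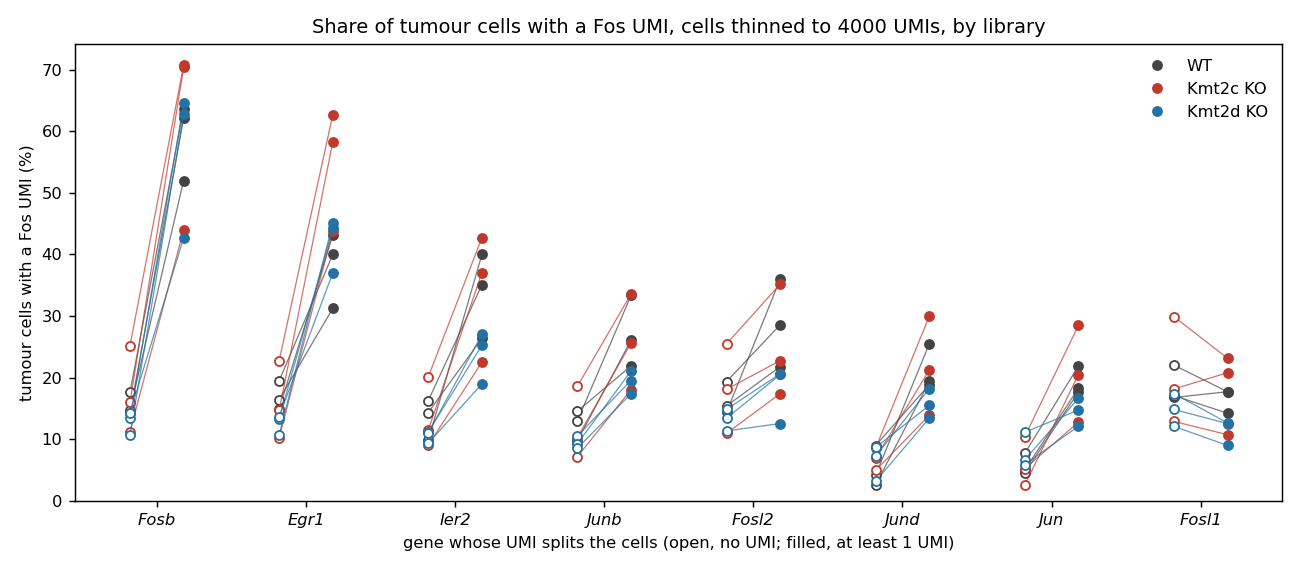
Share of tumour cells with a Fos UMI (y axis, percent) among cells without (open) and with (filled) a UMI of the gene on the x axis, for cells of at least 4000 UMIs thinned to 4000, each line 1 library coloured by genotype. The lines rise in 9 of 9 libraries for every gene but Fosl1, where 2 of 9 rise.

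Across the 9 tumour sums, the genes whose log2(CPM + 1) ran most like Fos were Egr1 (r = 0.95), Zfp503 (0.95) and Ier2 (0.95), among 6667 genes with a mean of at least 20 CPM. The nearest to Egr1 were Fos (0.95), Junb (0.95) and Adm (0.95), to Junb Ero1l (0.97), Bcl3 (0.97) and Nfkbiz (0.97), and to Ier2 Socs3 (0.95), Atf4 (0.95) and Mdfic (0.95). Fosl1 ran most like Pdgfa (0.96), Gys1 (0.95) and Nampt (0.95), and Fosl2 like Sbno2 (0.98), Hspb8 (0.97) and Nppb (0.97). For Fosb they were Raph1 (0.99), Ccnl1 (0.94) and Slirp (0.93), for Jun Otud1 (0.92), Chka (0.92) and Mapre3 (0.89), and for Jund Zfp503 (0.91), Thbd (0.88) and Mdfic (0.88). Atf3, at its near-zero level, had C1rl (0.92), Erp44 (0.87) and Nr1h2 (0.87). These are descriptions over 9 libraries that share their genotype groups. In stromal sums the r of Fos with Egr1 was -0.17, while that of Fos with Jun was 0.82 in tumour and 0.90 in stromal sums.

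Of 40 tested immediate early and feedback genes outside the 10, 18 rose and 3 fell in Kmt2c KO against WT tumour cells, with a median log2 fold change of 0.48 beside 0.01 over all genes and a background of 10.1% of genes higher and 8.56% lower. The values farthest from 0 belonged to Dusp2, a nuclear MAP kinase phosphatase (3.42 ± 0.37 SE, adjusted p = 0.000522), to the orphan nuclear receptors Nr4a3 (2.91 ± 0.83, adjusted p = 0.0343) and Nr4a1 (1.56 ± 0.26, adjusted p = 0.00378), and to Ier3 (1.5 ± 0.36, adjusted p = 0.016). Nr4a3 was at most 0.65 CPM in any tumour library and, with a difference of that size, could pass the low-count filter only through the KO libraries. Its fitted value is therefore a description, although the fit counted it among the 18. Dusp2 was at 1.05 to 1.38 CPM in WT, 8.11 to 14.5 CPM in Kmt2c KO and 3.65 to 7.15 CPM in Kmt2d KO tumour cells, and was the 1 gene of this list that rose in Kmt2d KO against WT (2.09, adjusted p = 0.0214), where 0.971% of all genes rose. Ier3 was at 75.1, 126 and 100 CPM in WT and at 149.8, 376 and 322 CPM in Kmt2c KO tumour cells.

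Of 19 tested other AP-1 and bZIP genes, 6 rose and 1 fell in Kmt2c KO tumour cells, and the same background of 10.1% higher and 8.56% lower stands beside this list and those that follow. Cebpb, a zipper factor of inflammatory and secretory programmes, was at 228 to 289 CPM in WT, 545 to 900 CPM in Kmt2c KO and 327 to 517 CPM in Kmt2d KO tumour cells, and its log2 fold change in Kmt2c KO was 1.55 ± 0.21 (SE, adjusted p = 0.00132). Batf2 (2.45), Maff (0.82) and Atf5 (0.45) also rose. Among 18 tested upstream regulators 6 rose and 1 fell by small amounts, with Mapkapk2 and Map2k1, kinases of the p38 and ERK routes, and Srf each at 0.58, and Map2k6 at -0.59. Of 21 tested AP-1 target genes 8 rose and 0 fell in Kmt2c KO. They included the secreted proteases Mmp13 (6.83 ± 1.04) and Mmp3 (3.04 ± 0.25), the prostaglandin synthase Ptgs2 (2.85 ± 0.75) and Hmox1 (2.66 ± 0.54). Mmp13 stayed at or below 0.15 CPM in WT and passed the low-count filter through the KO libraries alone, so that a tested value had to be higher there. Its fitted value, which depends on the prior count, is therefore a description, although the fit counted it among the 8. In Kmt2d KO tumour cells Mmp3 was the 1 target of 21 that rose (2.05), where 0.971% of all genes rose. Of 18 tested heat shock genes 4 rose in Kmt2c KO tumour cells, Dnajb1 (0.83), Hsph1 (0.76), Bag3 (0.55) and Hspb8 (0.41), and the median of the list was 0.02.

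Between compartments, 20 of 41 immediate early and feedback genes were lower and 10 higher in tumour cells, beside a background of 36.3% of genes lower and 36.7% higher. The share called in either direction was near the 72.9% of all genes for this list and the next 2. Nr4a3 (-6.97), Spry4 (-4.28), Klf2 (-3.40) and Egr3 (-3.31) were the farthest below their stromal level, and Klf2, an endothelial and lymphocyte factor, stood at 10.1 to 18.1 CPM in tumour and 101.4 to 197 CPM in stromal cells. Nr4a3, near 0 in tumour cells, passed the low-count filter through the stromal sums alone, so its value is a description. Of 22 other bZIP genes 11 were lower and 6 higher, among them Maf (-8.24), Batf3 (-8.21) and Batf (-8.13), factors of immune cells. With differences of this size, Maf, Batf3 and Batf may have passed the low-count filter through the stromal sums alone. Their values are therefore a description, although the fit counted them. Upstream regulators were lower in 8 and higher in 5 of 19, with Rps6ka1 at -7.63, Rps6ka3 at -1.96, Map2k6 at -1.15 and Mapkapk2 at -0.90. The value of Rps6ka1 is a description for the same reason. Of 21 AP-1 targets 15 were higher and 3 lower in tumour cells, among them Spp1 (3.21) and Mmp9 (3.07) above and Plau (-3.64) and Il6 (-2.87) below. Of 19 heat shock genes 14 were higher in tumour cells, such as Hspb8 (2.19) and Hsp90aa1 (1.67), and 2 were lower, Hspb1 (-7.29) and the stress-inducible Hspa1a (-5.76). The value of Hspb1, of like size, is a description too. Hspa1a was at 0.22 to 7.13 CPM in tumour and 31.8 to 155 CPM in stromal cells, highest in both in the third WT library.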

How the data were processed

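The deposited matrix holds UMI counts per gene and cell barcode. Per the submitters' processing notes the authors made it with Cell Ranger 7.0.1 on mm10, and no source used here says whether aggregation thinned the libraries. The barcode suffix gave the library, and the genotype letter in the aggregation table (C, D or X) its group. How the study names its comparisons gave the meaning of each letter, with X for WT, C for Kmt2c KO and D for Kmt2d KO, and every genotype comparison rests on that reading. Numbers 1 to 3 name libraries only.

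Cells with more than 500 and fewer than 7500 genes and under 15% mitochondrial counts, the study's limits, were kept (58645 of 89147). Doublets were not called, and 919 cells with H2BMc and at least 2 markers of a stromal class other than fibroblast were left out. Of the kept cells, 15788 were in the tumour gate and 2133 in the stromal pool, and the others entered no main fit. By library, 19.4 to 38.9% of the kept cells had an H2BMc UMI. Counts were summed per library, because cells are not replicates, and tested with edgeR 4.0.16 (R 4.3.3, glmQLFit and glmQLFTest, filterByExpr, TMM, genotype as the factor, all 9 libraries, with a call where p was below 0.05 after Benjamini-Hochberg adjustment over all genes tested). Tumour against stromal cells and the interactions had the library as a block. The SE was taken as the size of the log2 fold change divided by the square root of the F statistic. The 10 genes and all lists were chosen with earlier results of these data known. All 10 are named, with up to 4 called genes a list by size of change in Kmt2c KO or Kmt2d KO against WT in tumour cells and between compartments, and the 3 genes most like each member. One result that this rule would name is not reported here. DESeq2 1.42.0, no filter, each library left out, other limits and other gates were the alternatives. Scripts were tested on simulated counts. In the Kmt2c KO against WT simulation, 94% of 50 genes changed 2-fold were recovered in tumour sums (13886 genes) and 32% of 50 in stromal sums (9419 genes), which limits what the stromal tests can show. The simulation used 1 common spread for all genes and changed only genes with an expected count above 10 in every library. It therefore does not give the power for single members. Egr1, at 0.99 ± 0.42 (SE) in Kmt2c KO against WT tumour cells, was not called.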

Additional observations from a re-analysis of the deposited data

Results flagged for a closer look

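By the edgeR interaction test, the genotype difference was not the same in tumour and in stromal cells for 4 of the 10 genes over 3 comparisons. The test called 3 members for Kmt2c KO against WT, 2 for Kmt2d KO against WT and 1 for Kmt2d KO against Kmt2c KO. Of all genes, 7.17, 1.66 and 0.618% were called in the same order. The 4 genes are given with their tumour and stromal values. Those values come from separate fits of each compartment, so their difference need not equal the interaction value. Fosl2 differed by 1.39 for Kmt2c KO against WT, with 0.86 in tumour and -0.43 in stromal cells. Jun differed by -0.71 for Kmt2c KO (0.23 in tumour, 1.04 in stromal cells) and by -0.87 for Kmt2d KO (-0.21 and 0.79). Fosl1 differed by -2.89 for Kmt2c KO (0.70 and 3.55) and by -3.47 for Kmt2d KO (-0.05 and 3.39), with 4 UMIs in all WT stromal cells. Egr1 differed by -2.28 for Kmt2d KO against Kmt2c KO, with -1.31 in tumour and 0.77 in stromal cells. With at least 3 markers asked of a stromal cell the calls of Jun and Fosl1 were lost for both KO genotypes, and those of Jun and Egr1 were also lost without single libraries. Groups of 3 libraries are too small for a test of single outlying libraries.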

How the results depend on the processing

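No paired analysis was possible because the library names do not carry the replicate number of the labels, so libraries of different genotypes were not paired, while tumour and stromal sums of 1 library were. Of 441 values of called members under the alternatives, 380 kept call and direction, 58 lost the call and 3 reversed: Egr1 in tumour against macrophage-gated cells (1.55), Fosb with at least 3 markers (0.11) and Jund with fibroblast-gated cells included (-0.15). The 441 include values given as descriptions, whose direction the filter had fixed in the main fit. These are Atf3 between compartments (21 of 21 kept) and stromal Fosl1 for Kmt2c KO (18 of 18 kept) and Kmt2d KO (6 of 17 kept). Their kept calls are no sign of stability. The number of members called moved by over 1.5 times as follows, and the cause was not tested. Without the low-count filter it was 6 for Kmt2c KO against WT and 6 for Kmt2d KO against Kmt2c KO in tumour cells, 3 for Kmt2d KO against WT and 1 for Kmt2d KO against Kmt2c KO in stromal cells, and 5, 5 and 2 for the interactions of Kmt2c KO against WT, Kmt2d KO against WT and Kmt2d KO against Kmt2c KO. The genes called in the same fits, in this order, were 2632 and 615 of 23252, 422 and 699 of 19157, and 1248, 472 and 332 of 24097. DESeq2 called 2 and 1 for Kmt2d KO against Kmt2c KO in tumour and stromal cells. With only the 2 groups compared it was 5 for Kmt2c KO against WT in tumour cells (3580 of 13149 genes) and 0 for Kmt2d KO against WT in stromal cells, and it was 0 for the latter with no mitochondrial limit, without the 5% of cells with the most UMIs, with at least 3 markers and in macrophage-gated cells. The Kmt2c KO interaction called 5 with fibroblast-gated cells and 1 with macrophage-gated cells only (2575 of 14617 and 521 of 13171 genes, against 1021 of 14248). The Kmt2d KO interaction called 1 without the 5% of cells with the most UMIs, 0 with at least 3 markers and 6 with endothelial-gated cells only (90 of 14075, 58 of 14222 and 525 of 13700 genes, against 237 of 14248), and the Kmt2d KO against Kmt2c KO interaction 0 without those 5% and 0 with fibroblast-gated cells (14 of 14075 and 36 of 14617 genes, against 88 of 14248).

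With 1 library left out, the number of members called ranged from 1 to 5, 0 to 1 and 0 to 7 in tumour cells (Kmt2c KO against WT, Kmt2d KO against WT, Kmt2d KO against Kmt2c KO), from 2 to 3, 0 to 1 and 0 to 1 in stromal cells, from 8 to 10 between compartments, and from 2 to 5, 1 to 3 and 0 to 2 for the interactions. Over all genes and with all libraries, 11.3, 0.295 and 0.137% were called in stromal cells, 72.9% between compartments and 7.17, 1.66 and 0.618% for the interactions. The shares over all genes are not given for every library left out, so these ranges are a description. The highest numbers in tumour cells (5, 1 and 7), in stromal cells of Kmt2d KO against Kmt2c KO (1) and for the Kmt2c KO interaction (5) were those without the second Kmt2d KO library. The fits of tumour cells without it called 4061, 778 and 2726 of 14024 genes, against 2602, 284 and 0 of 13906 with all libraries. Interactions fell to 1 for Kmt2d KO against WT without the second or the third WT library and to 0 for Kmt2d KO against Kmt2c KO without the third Kmt2c KO library, and rose to 2 for the latter without the first Kmt2c KO or the second Kmt2d KO library. No correlation passed after adjustment under any setting, and no share of tumour cells did at 1000, 2000 or 4000 UMIs. Of the shares in stromal, macrophage-gated and endothelial-gated cells at these depths, 1 passed, that of Atf3 in macrophage-gated cells at 4000 UMIs, with 25 to 38.5% in WT, 20 to 24.2% in Kmt2c KO and 11.1 to 18.5% in Kmt2d KO libraries (exact permutation p = 0.00357, the smallest possible, adjusted 0.0357, 9 to 37 cells a library). At 1000 and 2000 UMIs its adjusted exact permutation p was 0.619 and 0.601. Stromal sums were 565892 to 1502970 UMIs against 8697895 to 42495519 in tumour cells, and changes there were measured with less precision.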
